A study of Mus musculus with 4 samples.

Results

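Voltage-gated and potassium channel genes were compared between 2 populations of neural tube cells of the mouse embryo. A gene belonged to the set when its symbol in the platform annotation named a potassium channel subunit (Kcn), a sodium channel alpha or beta subunit (Scn), a voltage-gated calcium channel subunit (Cacn) or a hyperpolarization-activated channel (Hcn). The arrays held 254 probe sets for 121 such genes. Each gene was read by its brightest probe set, and 63 genes whose mean deposited signal over the 4 arrays reached the 40th percentile of all probe sets (a signal of 42.5) were kept, out of 12751 genes kept by the same steps. Of these 63, 61 code for channel subunits and 2 are non-coding RNAs of channel loci, Kcnq1ot1 and Kcnmb4os2, whose symbols met the rule. The other 58 genes were too dim to be kept. The dimmest kept gene was Kcna5 (mean deposited signal 42.7) and the brightest one left out was Cacna1e (41.6). The files give no call of presence or absence, so a dim signal here does not show whether a gene was transcribed. In 51 of the 63 genes the mean of each population reached the value of the filter. A further 6 passed through the Atoh1-GFP arrays alone (Cacng3, Kcna2, Kcna6, Kcng4, Kcnk13 and Kcnq3) and 6 through the dNeurog1-GFP arrays alone (Kcna5, Kcnd2, Kcng1, Kcnk1, Kcnma1 and Scn9a), and a filter of this kind favours a difference in those 12.

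RNA came from GFP-sorted cells of E10.5 neural tubes, dissected between the limb levels of transgenic embryos of mixed B6SJLF1 and ICR strains. Embryos of the Atoh1BAC-GFP line (Atoh1-GFP below) express GFP from a bacterial artificial chromosome in Atoh1-derived cells, the dorsal interneuron 1 (dI1) lineage. Embryos of the dNeurog1-GFP line express it from a Neurog1 enhancer in the dorsal neural tube, marking dorsal interneuron 2 (dI2). Both populations had 2 arrays, described as biological replicates. The sources used here do not give the number of embryos, nor is it stated outright that the GFP-positive fraction was hybridised. In bulk samples, fewer cells of a type and less RNA per cell cannot be told apart.

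Voltage-gated channels open and close with the membrane potential. Sodium channels carry the upstroke of the action potential, calcium channels let in the calcium that triggers transmitter release and gene regulation, and potassium channels repolarise the membrane and set its resting level. Pore-forming subunits of a family assemble with auxiliary subunits that set gating and surface expression. In the embryonic spinal cord, neurons acquire these currents after they leave the cell cycle, and early electrical activity precedes synapse formation.

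Both lineages are specified by basic helix-loop-helix factors, a class that binds the E-box, CANNTG. The sequences that follow are the 250 bases before the RefSeq start of 3 genes described further on, Kcnk5 (lower in Atoh1-GFP cells), Kcnh8 and Kcnd3 (both with higher signals there). They were shown because, of 13 channel genes called under any scaling with the replicate number in the model, these 3 had a window lying wholly before the annotated gene. Each is given 5′ to 3′ on the strand of the gene in GRCm38.p6, Kcnk5 at chr14:20181783-20182032 (minus strand), Kcnh8 at chr17:52602459-52602708 (plus strand) and Kcnd3 at chr3:105451640-105451889 (plus strand), with each CANNTG match in capitals.
Kcnk5: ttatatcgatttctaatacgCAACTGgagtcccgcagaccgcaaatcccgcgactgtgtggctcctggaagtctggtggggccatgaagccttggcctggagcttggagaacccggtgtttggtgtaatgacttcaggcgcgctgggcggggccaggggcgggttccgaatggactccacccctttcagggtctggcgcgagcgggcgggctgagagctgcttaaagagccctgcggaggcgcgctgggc
Kcnh8: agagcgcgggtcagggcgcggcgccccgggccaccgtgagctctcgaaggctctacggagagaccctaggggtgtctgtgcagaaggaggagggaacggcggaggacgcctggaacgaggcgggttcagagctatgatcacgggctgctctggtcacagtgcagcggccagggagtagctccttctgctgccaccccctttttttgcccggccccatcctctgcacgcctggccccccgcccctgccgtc
Kcnd3: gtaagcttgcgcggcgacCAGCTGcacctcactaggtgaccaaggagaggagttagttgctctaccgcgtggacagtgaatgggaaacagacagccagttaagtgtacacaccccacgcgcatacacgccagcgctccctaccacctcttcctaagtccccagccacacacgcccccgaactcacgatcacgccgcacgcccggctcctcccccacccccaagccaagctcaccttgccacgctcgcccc
Kcnk5 held 1 match, CAACTG, 230 bases before the start. Kcnd3 held 1, CAGCTG, 232 bases before the start, and Kcnh8 held 0. Windows of this length matched CANNTG, which reads the same on both strands, in 66.2% of 32851 mouse promoters and in 64.3% of the 70 promoters of the 49 channel genes found in the RefSeq table. The form CAGCTG, a subset of CANNTG, stood in 13% of all promoters and in 17 of the 70 (24.3%). Counted by gene, it stood in at least 1 promoter of 14 of the 49 channel genes (28.6%) and of 14.7% of all genes. CAGATG, searched on both strands, stood in 12.9% of the channel promoters against 14.4% of all. Promoters of a gene can overlap, and a match is not evidence of binding.

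Values below are MAS5 signal intensities after all arrays were scaled to a common trimmed mean of 500. The replicate 1 arrays had been deposited at trimmed means of 250.001 and the replicate 2 arrays at 500.003, in both populations. The replicate number thus goes with the deposited scaling, and each number holds 1 array of each population. The labels name no batch. Results are given without it in the model, with it as a block, and within each replicate number. Differences are Atoh1-GFP minus dNeurog1-GFP in log2(signal + 32), which understates the change of dim genes. Folds given with a difference are those of signal + 32, so they are smaller than the ratios of the signals. The targeted factors followed the labels. Atoh1 read 21412 and 19675 in Atoh1-GFP against 1771 and 1861 in dNeurog1-GFP cells, and Neurog1 had 172 and 176 against 1388 and 2469. Summed over 22 neuronal markers the signal was 109794 and 109988 against 73996 and 93582, with all 22 measured. Over 19 measured progenitor and cell cycle markers of 20 it was 71004 and 67978 against 106794 and 87017. Of the markers of other tissues, blood genes summed to 31216 and 32995 against 7896 and 23198 (7 of 8 on the array), heart muscle genes to 3160 and 4600 against 1149 and 2680, and endothelial genes to 2147 and 1015 against 892 and 798. Mesenchyme genes (6409 and 4509 against 2960 and 7189) and skeletal muscle genes (1814 and 1882 against 770 and 2256) overlapped between the populations. So did ganglion and neural crest genes (1242 and 1350 against 1120 and 1888, 4 of 9 on the array). The ventral neural tube sum was lower in Atoh1-GFP cells (1206 and 823 against 1503 and 4225), mostly against dNeurog1-GFP replicate 2. Of its 11 kept genes, 6 were lower within both replicate numbers, 2 higher (Shh and Foxa2) and 3 opposite. The globins Hbb-y (17369 and 17478 against 5247 and 13725) and Hba-x (6481 and 5941 against 1151 and 3872) made most of the blood sum. The part of these cells in the channel values was not tested.

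Across the channel genes, few differences between the populations passed the threshold with the common trimmed mean. On simulated data that held a replicate effect, the fit without the block found few or none of the changed genes. Its count therefore does not show that differences were few. Without the block 0 of 63 passed an adjusted p of 0.05 (limma), against 0.165% of all genes tested (0.0863% higher and 0.0784% lower in Atoh1-GFP cells). At an unadjusted p under 0.05, limma counted 4 higher (Kcnq3, Cacna1b, Scn3a and Scn8a, against 3.53% of all genes) and 2 lower in Atoh1-GFP cells (Cacna2d3 and Kcnk5, against 5.12%). With the replicate number as a block, 3 passed, 1 higher (Scn3a) and 2 lower (Cacna2d3 and Kcnk5), or 4.76% against 6.61% of all genes in either direction. With 1 residual degree of freedom this model made more false calls than its threshold allows on simulated data, so its calls are less certain than the adjusted p-values state. Of all genes, it called 2.82% higher and 3.79% lower in Atoh1-GFP cells. The number and balance of the block's calls depended on scaling. As deposited 6 were higher and 2 lower, after quantile normalization 10 and 3, and at a common 75th percentile 6 and 3, or 12.7%, 20.6% and 14.3% of the channel genes against 9.17%, 13.1% and 9.59% of all genes called. The share of channel genes called thus lay below that of all genes with the common trimmed mean and above it in the 3 other scalings. The calls beyond the 3 were Cacna1b, Kcnh8, Kcnmb4, Kcnq3 and Scn8a in all 3 of these scalings, Kcnk1 on the lower side in the last 2, and Cacna2d1, Kcnd3, Kcnj11 and Kcnn1 after quantile normalization.

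The median difference of the 63 genes was 0.05 (0.21 within replicate 1 and 0.10 within replicate 2), and that of all genes 0.0043. Among the scalings it ranged from -0.011 after quantile normalization to 0.10 as deposited, and it was 0.13 with a pseudocount of 16. Leaving out an array moved it to between -0.12 and 0.41. The signs within the replicate numbers agreed upward in 28 genes and downward in 13, and were opposite in 22. Over all genes 33.3% went up in both, 33.8% down in both and 33% opposite ways. The 4 arrays separated without overlap in 25 channel genes. Of these, 18 were higher in Atoh1-GFP cells (28.6%, against 16.1% of all genes) and 7 lower (11.1%, against 19%). Kcnq3 and Kcng4 of the 18, and Kcnk1 and Kcng1 of the 7, passed the filter through their higher population alone, which favours a separation. As deposited the counts without overlap were 12 higher and 8 lower (against 5.75% and 5.43% of all genes). After quantile normalization they were 18 and 12 (15.7% and 20.6%), and at a common 75th percentile 18 and 8 (14.1% and 19.5%). The share of channel genes on the lower side thus lay above that of all genes as deposited, and below it in the other scalings. The genes higher in Atoh1-GFP cells were mainly the brighter ones. Among the 29 channel genes at or above the 60th percentile, the median difference was 0.36 (0.32 within replicate 1 and 0.27 within replicate 2), and it lay between 0.29 and 0.36 in the 4 scalings, while all genes of that brightness had -0.02. Of these 29, 13 were higher without overlap (44.8%, against 16.8% of all genes of that brightness) and 5 lower (17.2%, against 21.2%). The 34 dimmer channel genes had a median of 0.0074. These are descriptions of the list, with no test. The neuronal marker sums above were higher in the same arrays, though not every neuronal marker was. The part of neuronal content in these medians was not tested.

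**Figure D1:**
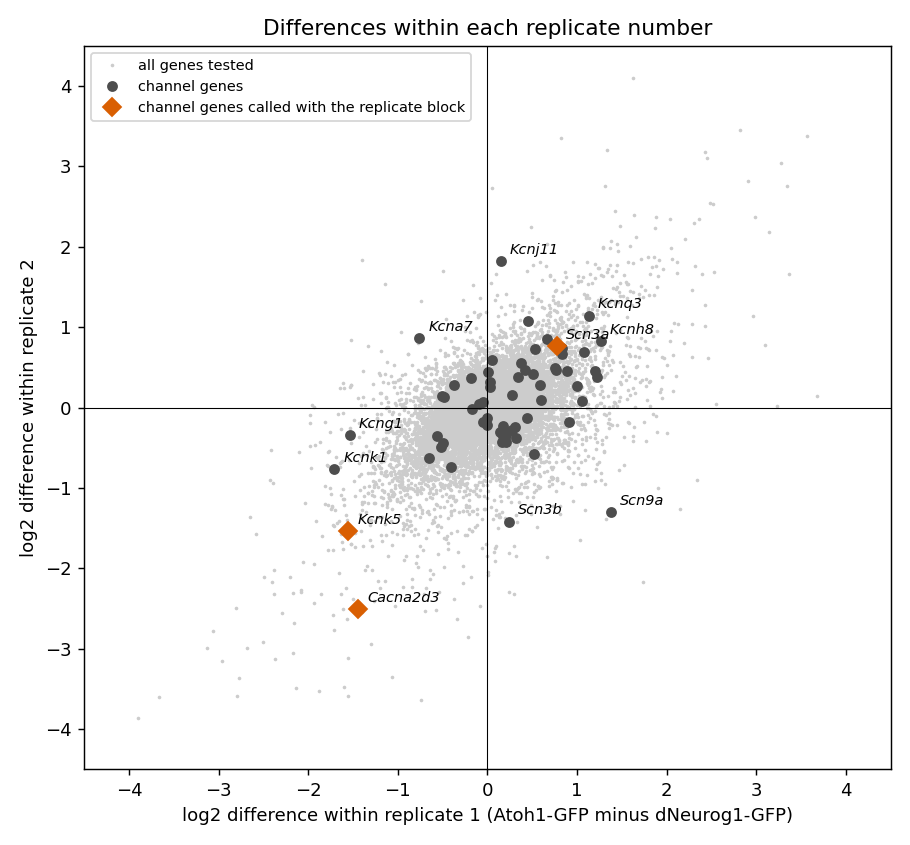
Log2 differences (Atoh1-GFP minus dNeurog1-GFP) within replicate 1 on the horizontal and within replicate 2 on the vertical axis, for 63 channel genes (dark points, orange where called with the replicate block) over all 12751 genes tested (grey). Cacna2d3 and Kcnk5 lie low on both axes and Kcnq3 high on both, while Scn9a (1.38 and -1.30) and Kcnj11 (0.15 and 1.83) lie off the diagonal.

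**Figure D2:**
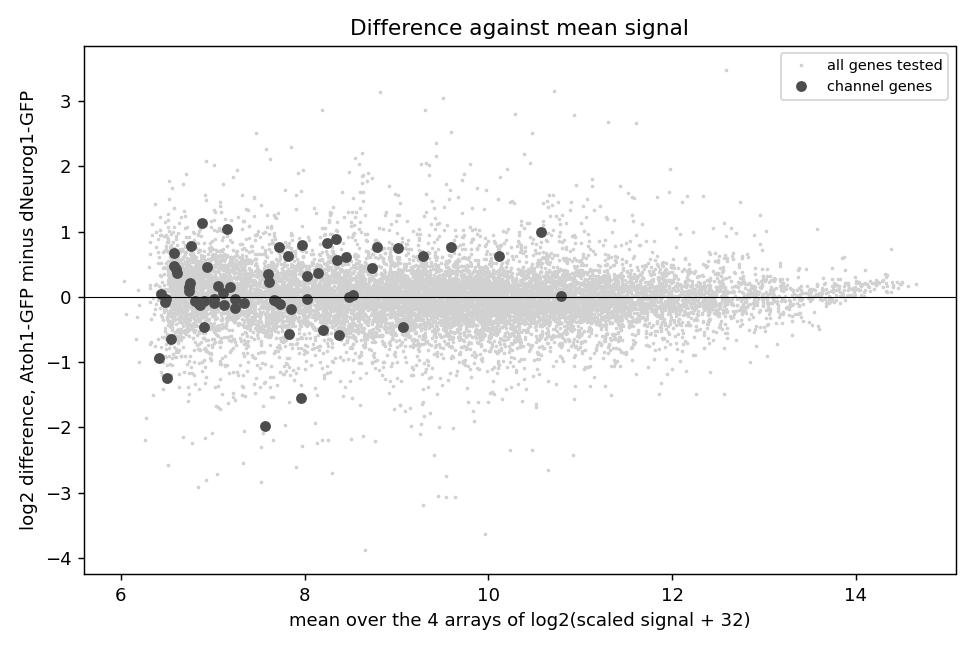
Log2 difference (Atoh1-GFP minus dNeurog1-GFP) against the mean of log2(scaled signal + 32) over the 4 arrays, for 63 channel genes (dark) and all genes tested (grey). Most of the 29 brighter channel genes lie above 0, with a median of 0.36, and the dim ones on either side of it.

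Among the sodium channel alpha subunits, which form the pore, 5 of 8 genes on the array were kept. Scn3a, the channel known as the embryonic brain sodium channel, was higher in Atoh1-GFP cells. The Atoh1-GFP arrays read 913 and 1047 and the dNeurog1-GFP arrays 518 and 605, so the groups did not overlap. The log2 difference was 0.77 (standard error 0.24), a 1.71-fold difference, with 0.78 within replicate 1 and 0.76 within replicate 2. The limma adjusted p fell from 0.36 to 0.034 when the block was added (standard error 0.14). Scn8a, the subunit that later gathers at axon initial segments and nodes, had 770 and 536 against 418 and 325. Its difference of 0.75 (standard error 0.28; 0.83 and 0.67 within the replicate numbers) had adjusted p = 0.50 without and 0.054 with the block. All 4 kept probe sets of Scn8a differed in that direction, by 0.75, 0.52, 0.10 and 0.75. Scn1a (85.1 and 138 against 82.8 and 104) and Scn2a (101 and 154 against 118 and 156), the other brain-type subunits, overlapped between the groups, with differences of 0.17 and -0.09. Scn9a, a subunit best known from sensory and sympathetic neurons, had 89.2 and 32 against 14.6 and 125. It went opposite ways in the replicate numbers, by 1.38 and -1.30.

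Of the sodium channel beta subunits, which modulate the pore and act in adhesion, Scn2b and Scn3b of 3 genes were kept. Scn2b had 355 and 329 against 279 and 396, a difference of 0.03. Scn3b had 318 and 176 against 264 and 525, so that the dNeurog1-GFP replicate 2 array alone was high. Its difference was -0.59 (standard error 0.41, limma adjusted p = 0.88, and 0.43 with the block). By replicate number it was 0.24 and -1.42. On that array the summed ventral neural tube, ganglion, mesenchyme and skeletal muscle markers were also highest. Their part in it was not tested.

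The calcium channel alpha1 subunits, which form the pore, had 6 kept members of 9, and 0 passed in either model. Cacna1b, the N-type channel of nerve terminals, had 358 and 472 in Atoh1-GFP against 152 and 280 in dNeurog1-GFP cells. The groups did not overlap, and the difference was 0.89 (standard error 0.35; 1.08 and 0.69 within the replicate numbers), with limma adjusted p = 0.52 without and 0.064 with the block. Its 3 other kept probe sets gave 0.62, 0.49 and 0.44. The low-voltage-activated T-type channels went opposite ways without overlap. Cacna1h had 375 and 427 against 208 and 301, a difference of 0.61 (standard error 0.29, adjusted p = 0.66 and 0.13 with the block). Cacna1g had 258 and 178 against 384 and 264, a difference of -0.51 (standard error 0.32, adjusted p = 0.85 and 0.20). Cacna1a, the P/Q-type channel, had 202 and 175 against 122 and 161, a difference of 0.35. Cacna1c and Cacna1f, both of the L type, overlapped, with differences of -0.07 and -0.09.

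The largest difference of the set was in a calcium channel auxiliary subunit. Cacna2d3, an alpha2delta subunit, a class that carries the pore to the membrane, was lower in Atoh1-GFP cells. The Atoh1-GFP arrays read 72.7 and 55.2 and the dNeurog1-GFP arrays 253 and 462, well apart. The highest of these, dNeurog1-GFP replicate 2, also had the highest summed ventral neural tube, ganglion, mesenchyme and skeletal muscle markers. Their part in the Cacna2d3 signal was not tested. The difference was -1.97 (standard error 0.40), that is 3.93-fold higher in dNeurog1-GFP cells, with -1.44 within replicate 1 and -2.50 within replicate 2. It missed the threshold without the block (limma adjusted p = 0.15) and passed with it (0.023). In fits that left out 1 array and had no block, the difference lay between -2.37 and -1.57. The limma adjusted p was 0.60 when the dNeurog1-GFP replicate 2 array was dropped and 9.7e-04 to 0.035 for the other arrays. Such a fit has 1 array in a group, which is assumed to vary like the other group, so these values add no support. Cacna2d1, another alpha2delta subunit and the binding site of gabapentin, had signals in the opposite order, 1332 and 1362 against 650 and 1126. Its difference was 0.63 (standard error 0.30; 1.0 within replicate 1 and 0.27 within replicate 2), with adjusted p = 0.67 and 0.12 with the block. Cacna2d2 had nearly equal means (439 and 239 against 358 and 295, difference -0.0017, standard error 0.34).

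The cytoplasmic beta and the gamma subunits made up the rest of the 12 kept auxiliary members of 15. Cacnb1 had 416 and 325 against 184 and 305, a difference of 0.57 that lay mainly in replicate 1 (1.05, and 0.08 in replicate 2). Cacng4, a gamma subunit of the kind that also traffics AMPA receptors, was without overlap in the other direction, 447 and 402 against 642 and 558. Its difference of -0.47 (standard error 0.24; -0.49 and -0.44 within the replicate numbers) had limma adjusted p = 0.72 and 0.16 with the block, and its second probe set gave -0.61. The other 7 members (Cacnb2, Cacnb4, Cacng2, Cacng3, Cacng5, Cacng7 and Cacng8) overlapped between the groups.

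**Figure D3:**
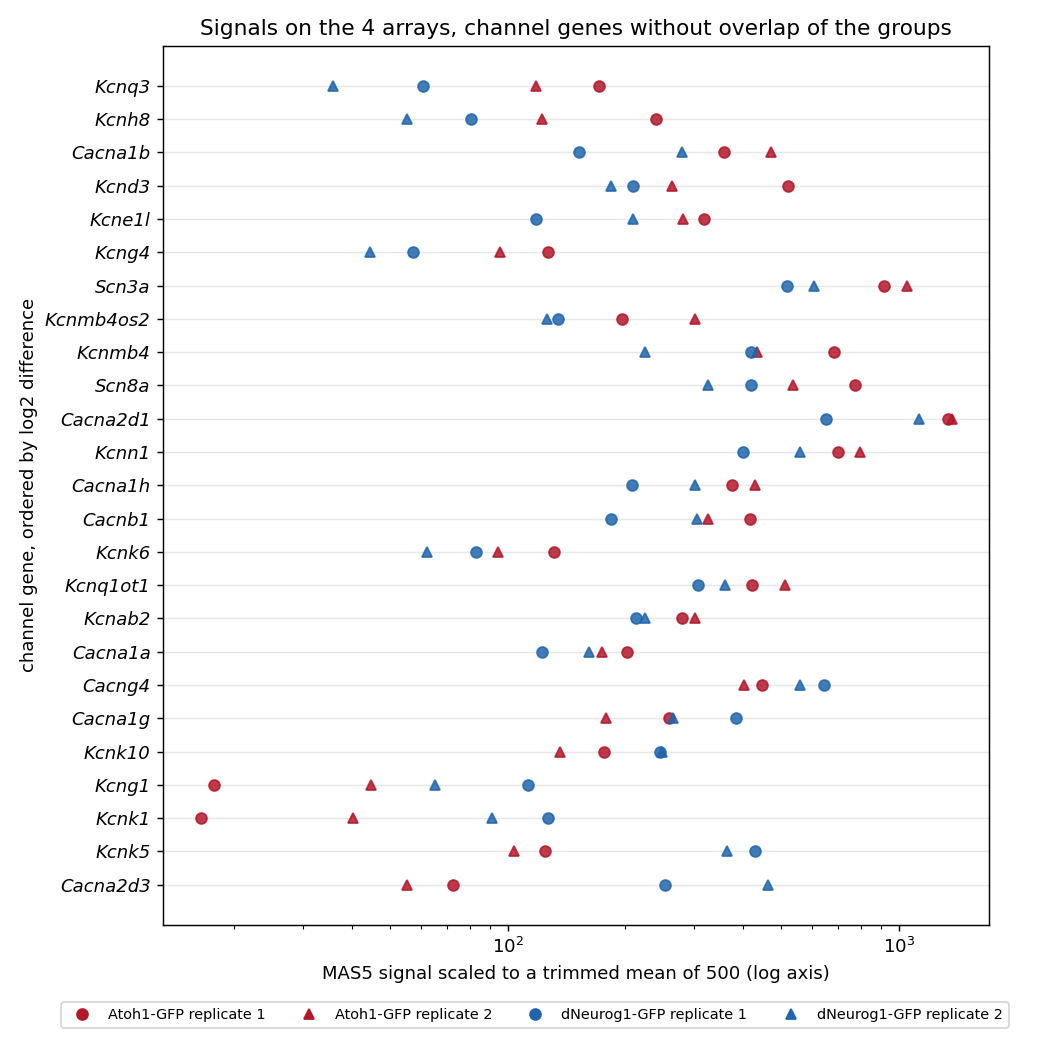
MAS5 signals on the 4 arrays (log axis, scaled to a trimmed mean of 500) of the 25 channel genes whose 2 groups of arrays did not overlap, ordered by log2 difference; circles are replicate 1 and triangles replicate 2. At the bottom Cacna2d3 and Kcnk5 have wide gaps between red (Atoh1-GFP) and blue (dNeurog1-GFP) points, while Cacna1g and Kcnmb4 have populations that nearly touch.

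Of the potassium channel genes, 1 was called. Kcnk5, a leak channel of the K2P family sensitive to extracellular pH, was lower in Atoh1-GFP cells. The Atoh1-GFP arrays read 125 and 104 and the dNeurog1-GFP arrays 428 and 363, and each array of a population lay close to its partner. The difference was -1.55 (standard error 0.30), 2.92-fold, with -1.55 within replicate 1 and -1.54 within replicate 2, and limma adjusted p = 0.13 (0.015 under the block, which it passed). Its promoter window is the one printed first above. Kcnk1 (16.5 and 40.3 against 127 and 91.4) and Kcnk10 (177 and 136 against 245 and 249) were without overlap in the same direction, by -1.24 (standard error 0.54) and -0.58 (0.31), with adjusted p = 0.095 and 0.20 with the block. Kcnk1 passed the filter through the dNeurog1-GFP arrays alone. Its second probe set, under the filter, read 38.9 and 17.6 against 23.7 and 33.8, a difference of -0.03. Kcnk6 was without overlap the other way, 131 and 94.6 against 83.0 and 62.4, a difference of 0.46. The remaining K2P genes, Kcnk2 and Kcnk13, overlapped, and 6 of 12 were kept in all.

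Kcnq3, a subunit of the slow M-type current that limits repetitive firing, was the gene with the highest positive difference. It had 171 and 118 on the Atoh1-GFP arrays against 60.9 and 35.8, more than 2-fold apart within each replicate number (1.13 and 1.15). The difference of 1.14 (standard error 0.46) had limma adjusted p = 0.55 without and 0.063 with the block, and the gene passed the filter through the Atoh1-GFP arrays alone. Over all genes, 1.11% were at least 2-fold higher within both replicate numbers and 1.18% at least 2-fold lower. Among channel genes 1 (Kcnq3) was higher and 2 (Cacna2d3 and Kcnk5) lower by that measure, which is stricter than a 2-fold ratio of the signals themselves. Kcnh8, of the EAG family of voltage-gated potassium channels, had 239 and 123 against 80.8 and 55.3, a difference of 1.05 (standard error 0.45; 1.27 and 0.83 within the replicate numbers; adjusted p = 0.078 with the block). Kcnh2, whose channel repolarises the heart, had nearly equal signals of 1612 and 1894 against 1671 and 1808, a difference of 0.0073 with a standard error of 0.22. Kcnh1 and Kcnh3 overlapped, and 5 of 9 genes of these 2 families were kept.

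Of 13 Kv1 to Kv4 pore genes 8 were kept, and Kcnd3, an A-type channel of dendrites and soma, was without overlap. It had 522 and 262 against 210 and 183, a difference of 0.82 (standard error 0.36; 1.20 within replicate 1 and 0.45 within replicate 2), with limma adjusted p = 0.62 and 0.12 with the block. Kcna2, Kcna5, Kcna6, Kcna7, Kcnc1, Kcnd1 and Kcnd2 overlapped, with differences between -0.18 (Kcnd1) and 0.67 (Kcna2). The electrically silent subunits, which form channels only with Kv partners, had 2 of 9 genes kept, and they lay on opposite sides. Kcng4 had 127 and 95.7 against 57.2 and 44.6, a difference of 0.79 (standard error 0.46). Kcng1 had 17.8 and 44.7 against 113 and 65.2, a difference of -0.94 (standard error 0.58). Each passed the filter through its higher population alone.

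Among channels opened by calcium or sodium, 3 of 8 genes were kept. Kcnn1, a small-conductance channel of the afterhyperpolarization, had 698 and 797 against 400 and 558, without overlap. Its difference was 0.62 (standard error 0.26; 0.76 and 0.49 within the replicate numbers), with limma adjusted p = 0.58 and 0.082 with the block. Its second probe set gave 0.32. Kcnma1, the pore of the large-conductance BK channel, had 62.4 and 26.9 against 117 and 59.3, which overlapped. Its difference was -0.64 (standard error 0.57), and its second kept probe set gave -0.77. Dimmer Kcnma1 probe sets under the filter had the other sign, 0.88, 0.17 and 0.25. Kcnmb4, the neuronal beta subunit of BK, had 683 and 434 against 418 and 225, without overlap. The difference of 0.76 (standard error 0.37; 0.67 and 0.86) had adjusted p = 0.67 and 0.061 with the block. Kcnmb4os2, a non-coding RNA transcribed opposite to Kcnmb4, had 196 and 300 against 134 and 126, a difference of 0.77 (standard error 0.34, adjusted p = 0.15 with the block). Whether its probe set also reads Kcnmb4 transcripts was not tested.

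Of the potassium channel auxiliary subunits, 6 of 15 genes were kept, Kcnmb4 among them. Kcne1l, of the single-span Kcne family, had 318 and 280 against 118 and 209, and Kcnab2, a cytoplasmic beta subunit of Kv1 channels, 279 and 300 against 213 and 224. Both were without overlap, with differences of 0.80 (standard error 0.34, limma adjusted p = 0.15 with the block) and 0.36 (0.27, adjusted p = 0.35). Kcnab1, Kcnip1 and Kcnmb2 overlapped. The non-coding RNA Kcnq1ot1, which silences the imprinted cluster around Kcnq1 and is no channel, had 422 and 512 against 307 and 360, a difference of 0.45 (standard error 0.26). Its other 2 kept probe sets gave 0.56 and 0.55.

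Inward rectifiers were mostly dim: 4 of 15 genes were kept, and 0 separated the populations. Kcnj11, the pore of the ATP-sensitive potassium channel, differed more by replicate number than by population, with 4204 and 1062 in Atoh1-GFP against 3782 and 277 in dNeurog1-GFP cells. Its difference was 0.15 within replicate 1 and 1.83 within replicate 2, and 0.99 together (standard error 1.14). Without the dNeurog1-GFP replicate 1 array it was 2.80, and without the dNeurog1-GFP replicate 2 array it was -0.83. A second Kcnj11 probe set, under the filter, was far dimmer and lacked this pattern. It read 14.7 and 26.1 against 45.6 and 25.9, a difference of -0.37. Kcnj3, Kcnj6 and Kcnj10 had differences from -0.11 to 0.14. Of the channels opened by hyperpolarization, both genes on the array were kept and both overlapped. Hcn3 had 204 and 325 against 196 and 205, a difference of 0.32 (standard error 0.32), and Hcn2 had 143 and 62.3 against 123 and 78.2. More channel genes stood higher on both replicate 1 arrays than on both replicate 2 arrays (25, or 39.7%, against 25.3% of all genes) than the reverse (4, or 6.35%, against 28.1%). The median scaled signals of the arrays, 138 and 115 for replicate 1 and 76.0 and 75.4 for replicate 2, moved the same way.

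**Figure D4:**
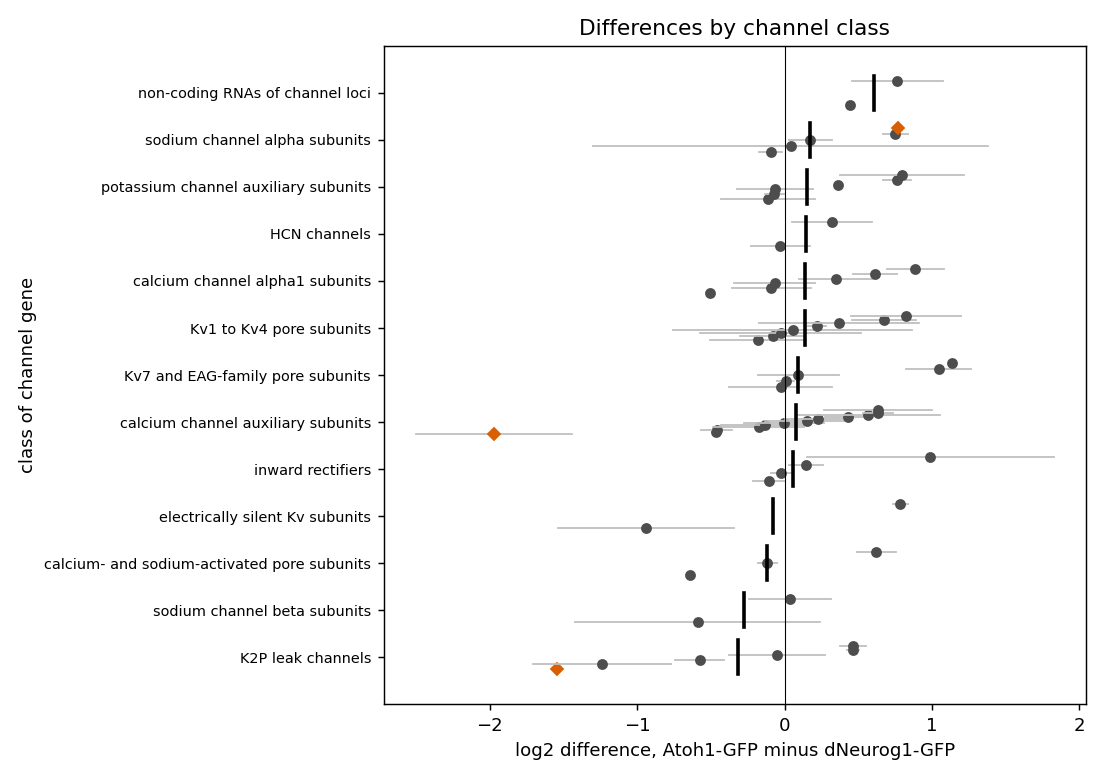
Log2 differences (Atoh1-GFP minus dNeurog1-GFP) of 63 channel genes by class: points are the mean difference, grey lines join the differences within replicates 1 and 2, black bars are class medians and orange diamonds the 3 genes called with the replicate block. Classes hold genes on both sides of 0 apart from the 2 non-coding RNAs, and Cacna2d3 (-1.97) lies below the other calcium channel auxiliary subunits (-0.47 to 0.63), while Kcnk5 (-1.55) and Kcnk1 (-1.24) are the lowest K2P genes.

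Several probe sets of a gene were kept for 18 channel genes, 43 probe sets in all, and in 14 of the 18 every probe set had the same sign. Kcna6 (0.37 and -0.54), Kcnh3, Kcnip1 and Kcnmb2 had probe sets of both signs. Cacna2d3, Kcnk5, Scn3a and Kcnq3 were each read by a single kept probe set. A second probe set of Kcnq3 lay just under the filter (mean deposited signal 40.5) and read 79.7 and 43.9 against 74.3 and 41.0, a difference of 0.06 against 1.14 for the kept one. Second probe sets of Kcnk5 and Scn3a, further under the filter, gave -0.70 and 0.28.

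**Figure D5:**
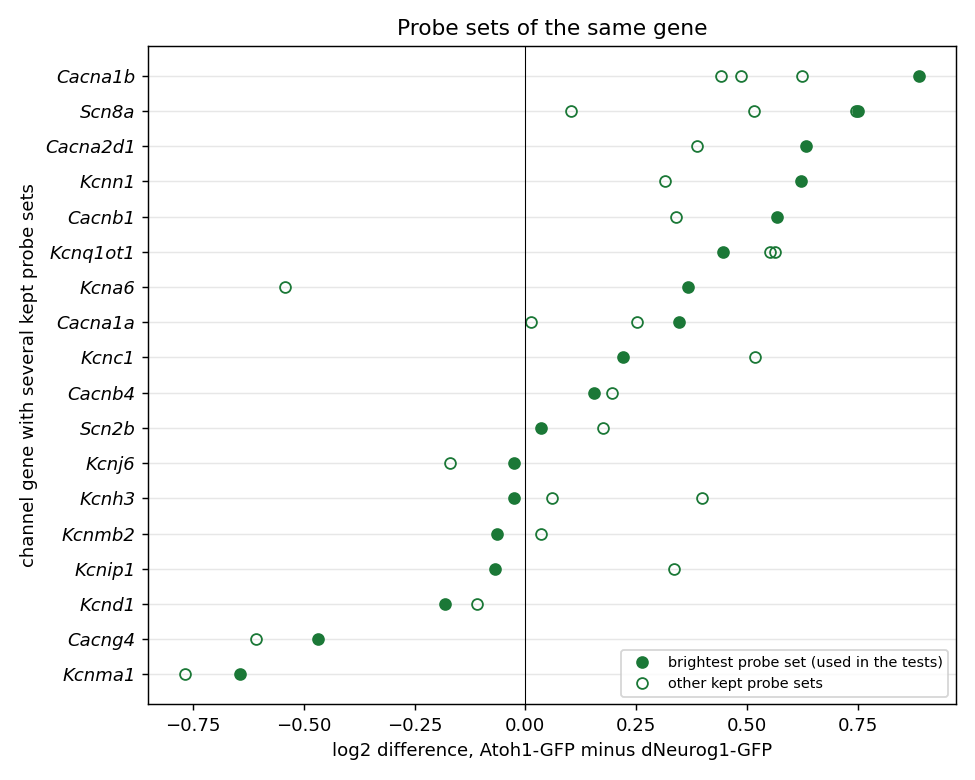
Log2 differences (Atoh1-GFP minus dNeurog1-GFP) of every kept probe set of the 18 channel genes with more than 1; filled points are the brightest probe set, used in the tests, and open points the others. The 4 probe sets of Cacna1b and of Scn8a all lie above 0, and those of Kcna6 lie on opposite sides of it.

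Genes that work with the channels were taken from 3 further lists, whose counts with the block stand beside 6.61% of all genes called. Of 12 kept ion pumps and transporters of 17 listed, 1 was called with the block and 0 without it: Atp2b2, a plasma membrane calcium pump, was higher in Atoh1-GFP cells (564 and 620 against 197 and 226, difference 1.36, standard error 0.25, limma adjusted p = 0.014 with the block and 0.12 without). Of 18 other ion channels of 26, the proton-gated channel Asic1 was called higher with the block (851 and 1565 against 434 and 776, difference 0.95, adjusted p = 0.018). Of 19 channel scaffolds and partners of 24, 2 were called higher and 1 lower with the block. Nfasc, the neurofascin that organises the axon initial segment, had 1748 and 2331 against 551 and 947, a difference of 1.44 (adjusted p = 0.0062). Nedd4l, a ubiquitin ligase that removes channels from the membrane, had 1184 and 1371 against 656 and 818, a difference of 0.77 (adjusted p = 0.028). Cntnap2, which clusters Kv1 channels beside the nodes of Ranvier, was lower, 223 and 147 against 638 and 377, a difference of -1.29 (adjusted p = 0.020). None of the 3 passed without the block (adjusted p = 0.19, 0.37 and 0.28), nor did Asic1 (0.56). Rest, the repressor of many channel genes outside neurons, had 593 and 456 against 746 and 680. Its difference of -0.43 (standard error 0.25) did not pass with the block (adjusted p = 0.18).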

How the data were processed

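RNA of 4 sorted samples was measured on Affymetrix mouse arrays. The authors deposited linear signal intensities, for which the submitters' processing notes name MAS5. The sources used here give neither its version nor its settings. Of 45101 probe sets, 64 controls were left out, 34945 had 1 gene symbol in the platform annotation, 932 several and 9160 none. Arrays were scaled to a trimmed mean of 500 (2% off each end), and log2(signal + 32) was fitted with limma 3.58.1 in R 4.3.3 (lmFit, eBayes with an intensity trend) on all 12751 genes, with Benjamini-Hochberg adjustment over them and a threshold of 0.05. Residual degrees of freedom were 2 without the block and 1 with it, so the p-values rest largely on the spread shared across genes. Since the labels do not tie same-numbered samples to a litter or a day, p-values measure only the spread between these arrays. The number of arrays limits the precision, and depth does not apply.

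The members and the lists were chosen with earlier results of these data known. Genes named by rule were members called in either model or 2-fold apart within both replicate numbers, the member with the largest absolute difference of each other channel class, called partner genes, and Atoh1, Neurog1 and Rest. Members without overlap, Scn9a, Kcnh2 and those given as ranges were chosen after their values were seen. Alternatives were the scaling, the pseudocount (16 or 64), the filter (none or the 60th percentile), the mean of a gene's probe sets, the replicate block and leaving out each array. On simulated data with known changes the model returned the differences without bias. The fit without the block found few or none of the changed genes, and the fit with it found most of them with a share of false calls above the threshold. The simulated data held each gene's replicate effect, and a spread, as estimated by the fit with the block. That setting favours the block, so the comparison does not show which fit is right for these arrays. Promoters are those of RefSeq on GRCm38.p6.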

Additional observations from a re-analysis of the deposited data

How the results depend on the processing

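The replicate numbers come from the sample titles, and the arrays of equal number deviated together from their group means (r = 0.64 across 12751 genes, which are not independent replicates). With 2 pairs this does not show that they pair the samples. Without the block 0 channel genes were called higher and 0 lower with each scaling, pseudocount, filter and probe set rule tried. Leaving out an array leaves 1 array in a group, which is assumed to vary like the other group. Calls of those fits are therefore not counted here. With the replicate block 1 was higher and 2 lower. The block gave 6 and 2 as deposited, 10 and 3 after quantile normalization and 6 and 3 at a common 75th percentile, with shares given above. It gave 2 and 2 with a pseudocount of 16 (6.35%, against 7.15% of all genes called) and 1 and 2 with 64 (4.76%, against 6.91%). With the mean of a gene's probe sets, a combination chosen after seeing the data, it gave 2 and 2 (6.35%, against 5.82%). Scn3a, Cacna2d3 and Kcnk5 were among the calls each time. Over all genes the block raised the calls from 21 to 843.

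The median difference of the channel genes was 0.36 with the 60th percentile filter, which tests only the 29 brighter ones, and -0.12 to 0.41 when an array was left out. Scn9a turned to -0.17 as deposited, -0.095 after quantile normalization, -0.0064 at a common 75th percentile and -0.0086 with a pseudocount of 64, with the block or without it, and ran from -0.84 to 0.92 when an array was left out. Kcnh2 was -0.015 at a common 75th percentile, with the block or without it, and -0.11 to 0.12 when an array was left out. Kcnj11 ran from -0.83 to 2.80. The cause was not tested. Atoh1 and Neurog1 passed without the block (adjusted p = 0.0050 and 0.025) and missed the threshold as deposited (0.24 for each), as Neurog1 did without a filter (0.051). A fit with the block and an array left out has no residual degrees of freedom and was not run.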
